A study of Saccharomyces cerevisiae with 27 samples.

Results

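The small-subunit (SSU) processome and the factors that assemble the 40S ribosomal subunit were followed here as 58 genes, taken by their gene identifiers from the 6746 genes of the count table. The list holds the UTP proteins, the core proteins of the box C/D snoRNP, other processome components and 40S assembly factors of the budding yeast Saccharomyces cerevisiae. All 58 passed the filter on low counts, as did 6209 genes in all. The lowest count of any of the 58 in any library was 6.

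Poly(A) RNA was sequenced in 27 libraries from 9 groups, each with 3 biological replicates. H4-T30D and H4-T30A cells were taken after 10 min of heat stress at 39°C, and H4-S47D cells after 15 min of osmostress in 0.4 M NaCl. The same mutants were taken without stress at 30°C in rich medium, and H4 WT cells under heat, under osmostress and without stress. T30D and S47D replace a threonine and a serine of histone H4 with aspartic acid, which resembles a phosphorylated residue, and T30A replaces the threonine with alanine, which cannot be phosphorylated. Every strain, H4 WT included, is labelled as BY4741 of mating type MATa with lys2Δ0, leu2Δ0, met15Δ0, ura3Δ0, his3Δ200 and trp1Δ63. All also carry can1::MFA1pr-HIS3 and hht1-hhf1::NatMX4, so that a synthetic histone H3 and H4 gene pair at hht2-hhf2, marked by URA3, is labelled as the source of H4. One set of non-stressed H4 WT libraries served all 3 mutants. The labels give a single H4 WT, whereas the methods of the study name a wild type beside H4-S47D and another beside the H4-T30 mutants, and whether these were the same strain is not given in the sources used here.

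Totals per library lay between 10212777 and 19503694 counts, with a median of 14662715. Replicate pairs differed by more than counting error, with chi-square values per degree of freedom between 2.1 and 37.8 over 27 pairs. The mating type a genes MFA1, MFA2, STE2, STE6 and BAR1 had at least 581 counts in each library, whereas the alpha genes MF(ALPHA)1, MF(ALPHA)2 and STE3 had 4 to 75, 7 to 171 and 82 to 295. TRP1, which all labels give as deleted, had 2449 to 5685 counts in the 6 H4-S47D libraries and 1 to 55 in the others. The H4-S47D strain therefore differs from H4 WT in TRP1 as well, and the mutation and this difference cannot be told apart in any H4-S47D comparison. HHT1 and HHF1, given as replaced in every strain, had 416 to 2874 and 211 to 942 counts.

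Replicate 3 of heat-stressed H4 WT stood apart from the other 2 heat libraries of that strain. Its median level of the 58 genes was −3.44 on the log2 scale relative to non-stressed H4 WT, against −4.18 and −4.31 in replicates 1 and 2. The 58 genes took 0.0784% of its counts, against 0.0506% and 0.0508%. It also held 1361 counts of the osmostress gene STL1, of which no other heat-stressed library had more than 72. The counts and medians of the 58 genes in each comparison that uses heat-stressed H4 WT are therefore also given without this library. What set it apart was not tested.

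The SSU processome forms on the nascent pre-rRNA as it leaves RNA polymerase I. The UTP-A and UTP-B complexes bind the 5′ external transcribed spacer first, the U3 box C/D snoRNP then pairs with the pre-rRNA, and the Mpp10 complex, UTP-C, helicases, a GTPase, modifying enzymes and many single factors follow. Cleavage and release of the particle yield a pre-40S subunit, which a smaller set of factors accompanies to the cytoplasm. In growing yeast these genes belong to the ribosome biogenesis regulon, which is repressed when cells face stress, and the promoter elements PAC and RRPE are typical of it. PAC is bound by Dot6 and Tod6, and RRPE by Stb3.

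Each of the 58 genes had a single coding exon and overlapped no other annotated gene in RefSeq's annotation of the R64 assembly. They lay on 14 chromosomes and were 381 to 7482 bases long. By role, 7 encode UTP-A proteins, 6 UTP-B, 5 the U3 snoRNP, 3 the Mpp10 complex and 2 UTP-C. A further 10 encode helicases, a GTPase and other enzymes, 20 encode other processome factors and 5 encode pre-40S factors. Per kilobase of coding length, their levels in non-stressed H4 WT ran between 13.9 and 1316 CPM (a gene's counts relative to the TMM-scaled total of its library, as edgeR computes it), with a median of 50.4, against 28.1 for all tested genes. SNU13, a small protein that binds the kink-turn of box C/D RNAs, was the highest at 1316 CPM per kilobase, followed by NOP1, the methyltransferase of the box C/D snoRNP, at 1133. UTP20, a very long scaffold protein, was the lowest at 13.9.

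The promoters were searched for PAC as GATGAG and for RRPE as AAAAATTTT on both strands, in the 250 bases before each coding start. PAC was found upstream of 51 of the 58 genes (87.9%), against 16.3% of the 5943 other protein-coding genes with windows of the same length. RRPE was found for 37 (63.8%, against 6.18%), and both for 34 (58.6%, against 2.81%). The nearest PAC lay 62 to 199 bases before the coding start, with a median of 104, and the nearest RRPE 26 to 217 bases before it, with a median of 123. In 31 of the 34 promoters with both, RRPE was farther from the start than PAC. UTP4, UTP15 and RRP7 had RRPE alone, and UTP22, EMG1, UTP30 and ESF2 had neither. The windows of 8 of the 58 genes reached into a neighbouring gene. A match is a run of letters and was not tested for binding.

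The promoters of UTP23, MRD1 and HCA4 are printed because these 3 genes fell most upon osmostress in H4 WT. Those of ESF1 and UTP22 were added after their values were seen. ESF1 did not fall upon heat, and UTP22 fell by less than 2-fold upon osmostress. RRP7, which has RRPE alone, fell by less than 2-fold upon both stresses and is not printed. Each is the 250 bases of R64 that end just before the coding start, 5′ to 3′ on the gene's own strand, with matches to PAC or RRPE in capitals.
UTP23 (chrXV:333342-333591, plus strand): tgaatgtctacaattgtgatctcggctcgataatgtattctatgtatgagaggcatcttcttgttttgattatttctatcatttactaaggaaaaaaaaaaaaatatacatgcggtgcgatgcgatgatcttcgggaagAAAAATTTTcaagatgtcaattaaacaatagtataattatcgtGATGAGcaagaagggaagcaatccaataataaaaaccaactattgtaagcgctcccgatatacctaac
MRD1 (chrXVI:751920-752169, minus strand): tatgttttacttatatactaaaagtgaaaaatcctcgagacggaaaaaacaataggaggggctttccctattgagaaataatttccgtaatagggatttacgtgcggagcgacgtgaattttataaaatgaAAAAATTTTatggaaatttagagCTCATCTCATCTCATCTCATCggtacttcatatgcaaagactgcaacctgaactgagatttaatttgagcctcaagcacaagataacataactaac
HCA4 (chrX:383587-383836, plus strand): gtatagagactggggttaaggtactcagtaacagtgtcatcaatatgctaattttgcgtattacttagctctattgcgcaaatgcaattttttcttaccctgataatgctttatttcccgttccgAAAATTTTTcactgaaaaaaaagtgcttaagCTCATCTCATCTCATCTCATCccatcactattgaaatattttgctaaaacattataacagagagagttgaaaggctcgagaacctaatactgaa
ESF1 (chrIV:1206384-1206633, minus strand): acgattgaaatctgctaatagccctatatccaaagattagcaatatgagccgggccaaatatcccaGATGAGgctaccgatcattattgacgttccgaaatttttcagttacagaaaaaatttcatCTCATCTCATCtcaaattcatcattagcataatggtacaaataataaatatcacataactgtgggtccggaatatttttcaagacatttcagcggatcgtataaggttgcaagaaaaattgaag
UTP22 (chrVII:662108-662357, plus strand): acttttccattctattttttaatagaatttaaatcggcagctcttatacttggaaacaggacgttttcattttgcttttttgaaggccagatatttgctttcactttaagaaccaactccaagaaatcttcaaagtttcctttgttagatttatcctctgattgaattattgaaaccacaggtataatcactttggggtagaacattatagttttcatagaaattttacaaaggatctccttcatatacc
UTP23 held 1 PAC and 1 RRPE, while MRD1 and HCA4 each held 1 RRPE and 4 PAC matches, which stand in one tandem run on the opposite strand. In ESF1 there were 3 PAC matches and no RRPE, and UTP22 had neither. None of these 5 windows reached into another gene.

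Upon osmostress in H4 WT cells, the genes of the processome fell almost without exception. Of the 58, 56 fell by more than 2-fold (edgeR's glmTreat test against a log2 fold change of 1, Benjamini-Hochberg adjusted p under 0.05 over 6209 genes) and none rose, while 12.5% of all tested genes fell and 12.8% rose. Their median log2 fold change was −2.97, with a range of −6.00 to −0.61, beside a median of 0.08 over all tested genes, and 27 of them were down by more than 3 on the log2 scale. The 58 genes together took 0.110% ± 0.00789 of all counts in osmostressed H4 WT, against 0.655% ± 0.0779 in non-stressed H4 WT (SD, n = 3 each). These are shares of the poly(A) RNA of a culture, in which fewer cells with a transcript and less transcript per cell cannot be told apart.

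UTP23 (YOR004W, chromosome XV, 333592 to 334356), a processome protein needed for the release of the snR30 snoRNA, showed the largest decrease. It had 0.835, 0.461 and 1.07 CPM in the 3 osmostressed libraries, against 48.9, 56.7 and 47.2 CPM in the 3 non-stressed ones. Every osmostressed value was far below every non-stressed one, and the log2 fold change was −6.00 (SE 0.23, adjusted p = 9.58e-19, edgeR). MRD1 (YPR112C, chromosome XVI, 749256 to 751919), an RNA-binding protein that joins the pre-rRNA early, had 1.77, 1.97 and 1.93 CPM under osmostress, against 91.1, 92.5 and 79.4 CPM without stress. The osmostressed replicates lay close together, and the fold change was −5.54 (SE 0.17, adjusted p = 1.1e-20, edgeR). HCA4 (YJL033W, chromosome X, 383837 to 386149), a DEAD-box helicase also known as Dbp4, had 2.21, 2.57 and 1.57 CPM under osmostress, against 101, 95.0 and 62.0 CPM without stress. Non-stressed replicate 3 was the lowest of its group and still far above the osmostressed libraries, and the fold change was −5.33 (SE 0.22, adjusted p = 1.54e-17, edgeR).

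By role, the decrease was called in every group but UTP-C. In UTP-A all 7 genes fell, with log2 fold changes of −3.88 to −2.37, and UTP5, the one with the highest mean CPM, had 14.1, 10.7 and 13.2 CPM in osmostressed H4 WT, against 204, 191 and 169 CPM in non-stressed H4 WT. All 6 UTP-B genes fell (−3.54 to −2.41). PWP2, the one with the highest mean CPM and a WD-repeat scaffold of that complex, had 19.4, 19.2 and 18.3 CPM under osmostress, against 225, 205 and 234 CPM without stress. In both genes the groups were widely separated and the replicates close. The 5 genes of the U3 snoRNP fell as well (−3.65 to −1.96). NOP1, the yeast fibrillarin, had 104, 109 and 117 CPM under osmostress, against 1039, 1069 and 1239 CPM without stress, a fold change of −3.34 (SE 0.15, adjusted p = 1.01e-15, edgeR). Every osmostressed library was about an order of magnitude below the non-stressed ones.

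The 3 genes of the Mpp10 complex, which helps U3 to pair with the pre-rRNA, fell too (−3.18 to −2.54), and MPP10 itself had 17.9, 18.0 and 17.9 CPM in osmostressed H4 WT, against 109, 108 and 94.9 CPM in non-stressed H4 WT. All 10 genes for helicases, GTPase and enzymes fell (−5.33 to −1.83). EMG1, the methyltransferase that modifies a pseudouridine of 18S rRNA, had 38.9, 39.8 and 46.1 CPM under osmostress, against 158, 182 and 195 CPM without stress, so that even this weaker decrease left the groups well apart. The 20 other processome factors all fell (−6.00 to −1.36), and so did the 5 pre-40S factors (−4.38 to −1.69). PNO1, the KH-domain protein also called Dim2, had 12.5, 11.2 and 12.9 CPM under osmostress, against 172, 193 and 163 CPM without stress.

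The UTP-C genes of this list, UTP22 and RRP7, stood outside this pattern. UTP22 had 69.7, 58.4 and 54.0 CPM in osmostressed H4 WT, against 124, 112 and 108 CPM in non-stressed H4 WT. The groups did not overlap, but the fold change of −0.92 (SE 0.10, adjusted p = 1, edgeR) did not pass the test against 1. RRP7, its partner, had 20.9, 21.1 and 21.7 CPM under osmostress, against 33.2, 34.6 and 29.3 CPM without stress, again without overlap, and a fold change of −0.61 (SE 0.15, adjusted p = 1, edgeR). Tested against 0, both differences had adjusted p-values of 8.31e-10 and 0.000428 (edgeR). UTP22 and RRP7 are also found with Ifh1, a regulator of ribosomal protein genes, in the CURI complex.

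**Figure D1:**
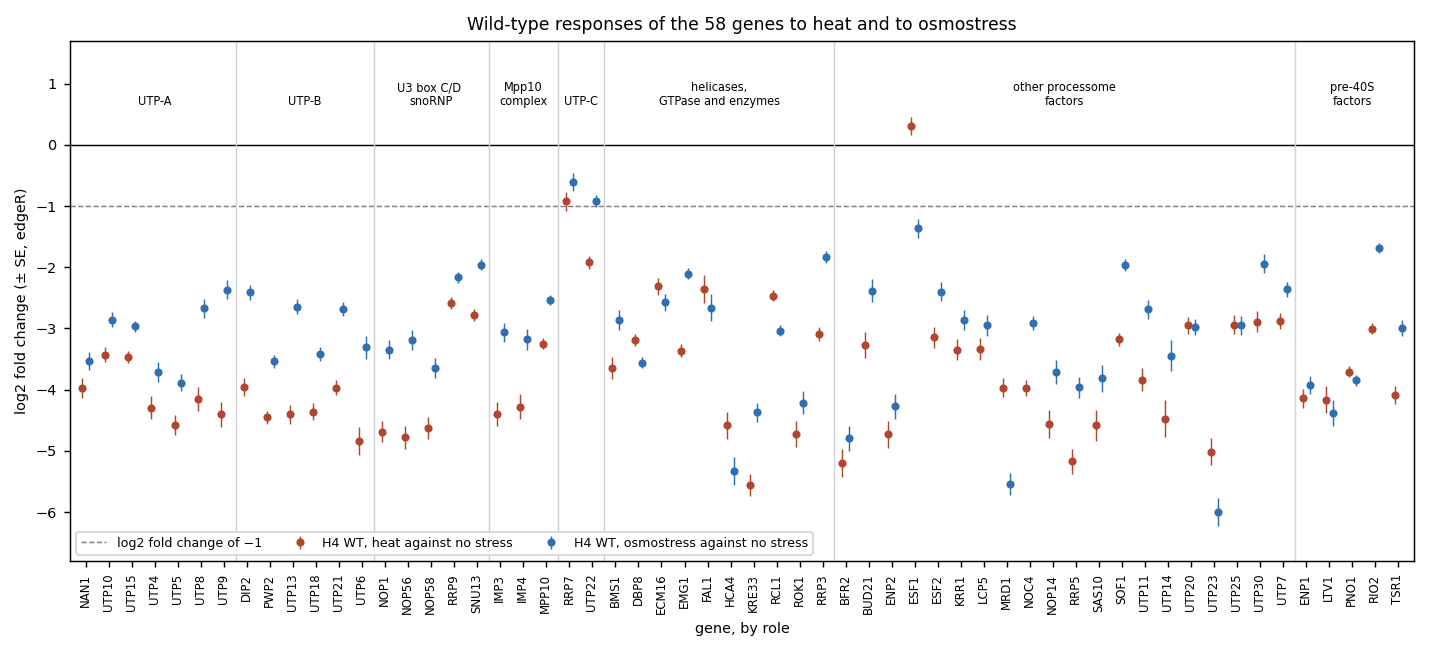
Log2 fold changes (y axis, ± SE from edgeR) of the 58 genes (x axis, ordered by role) in H4 WT under heat (red) and under osmostress (blue) against no stress, with the dashed line at −1. Most genes lie well below −1 in both stresses, and the exceptions near or above it are RRP7 in both stresses, UTP22 under osmostress and ESF1 under heat.

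Upon heat in H4 WT cells, 56 of the 58 genes fell by more than 2-fold and none rose (edgeR's glmTreat, adjusted p under 0.05), while 15.4% of all tested genes fell and 15.8% rose. The median log2 fold change was −3.97, with a range of −5.56 to 0.31, beside 0.08 over all tested genes, and 46 genes were down by more than 3. Without replicate 3 of heat-stressed H4 WT, 56 genes were again called lower and the median was −4.20. Of all tested genes, 15.2% then fell and 15.9% rose. The 58 genes took 0.0599% ± 0.0159 of all counts in heat-stressed H4 WT, against 0.655% ± 0.0779 in non-stressed H4 WT (SD, n = 3 each).

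KRE33 (YNL132W), the acetyltransferase of 18S rRNA, showed the largest decrease under heat, with 2.31, 2.00 and 5.82 CPM in heat-stressed H4 WT, against 160.0, 168 and 148 CPM in non-stressed H4 WT. Replicate 3 was the highest heat library and remained far below the non-stressed ones. The fold change was −5.56 (SE 0.18, adjusted p = 1.13e-20, edgeR). BFR2 (YDR299W), a processome factor that binds together with Enp2, had 0.888, 1.60 and 2.44 CPM under heat, against 62.8, 66.2 and 54.1 CPM without stress, a fold change of −5.20 (SE 0.23, adjusted p = 3.64e-17, edgeR). RRP5 (YMR229C), an RNA-binding protein needed for both subunits, had 2.93, 2.56 and 7.08 CPM under heat, against 158, 169 and 125 CPM without stress, a fold change of −5.17 (SE 0.20, adjusted p = 1.21e-18, edgeR). Neither gene's heat-stressed values came near the non-stressed ones, and replicate 3 was the highest heat library in both.

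ESF1, which is needed for pre-rRNA processing to 18S rRNA, was the exception. It had 127, 132 and 158 CPM in heat-stressed H4 WT, against 123, 128 and 85.0 CPM in non-stressed H4 WT, and 47.6, 44.5 and 38.4 CPM in osmostressed H4 WT. The heat-stressed values overlapped or lay slightly above the non-stressed ones, whereas the osmostressed ones were all lower. Its log2 fold change was 0.31 (SE 0.15) under heat, which was not called against 1 and had an adjusted p of 0.0661 against 0 (edgeR), and −1.36 (SE 0.16, adjusted p = 0.0143, edgeR) under osmostress. UTP22, with 25.0, 29.6 and 36.4 CPM under heat, fell with a fold change of −1.92 (SE 0.10, adjusted p = 3.03e-10, edgeR). RRP7, with 16.2, 15.9 and 19.4 CPM, was again not past 1 at −0.92 (SE 0.15, adjusted p = 1, edgeR).

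In the other roles, all genes fell under heat, with log2 fold changes of −4.58 to −3.43 in UTP-A, −4.84 to −3.96 in UTP-B, −4.78 to −2.59 in the U3 snoRNP and −4.40 to −3.25 in the Mpp10 complex. They were −5.56 to −2.31 for helicases, GTPase and enzymes and −4.17 to −3.0 for the pre-40S factors. The genes given above for these roles were far below their non-stressed levels in heat-stressed H4 WT. UTP5 had 5.59, 5.44 and 12.6 CPM under heat, PWP2 had 8.26, 8.48 and 13.6 CPM and NOP1 had 32.7, 31.6 and 65.6 CPM. MPP10 had 10.7, 9.84 and 12.4 CPM, EMG1 had 16.3, 15.0 and 20.7 CPM and PNO1 had 12.3, 11.7 and 16.4 CPM. Replicate 3 was the highest library for all 6.

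**Figure D2:**
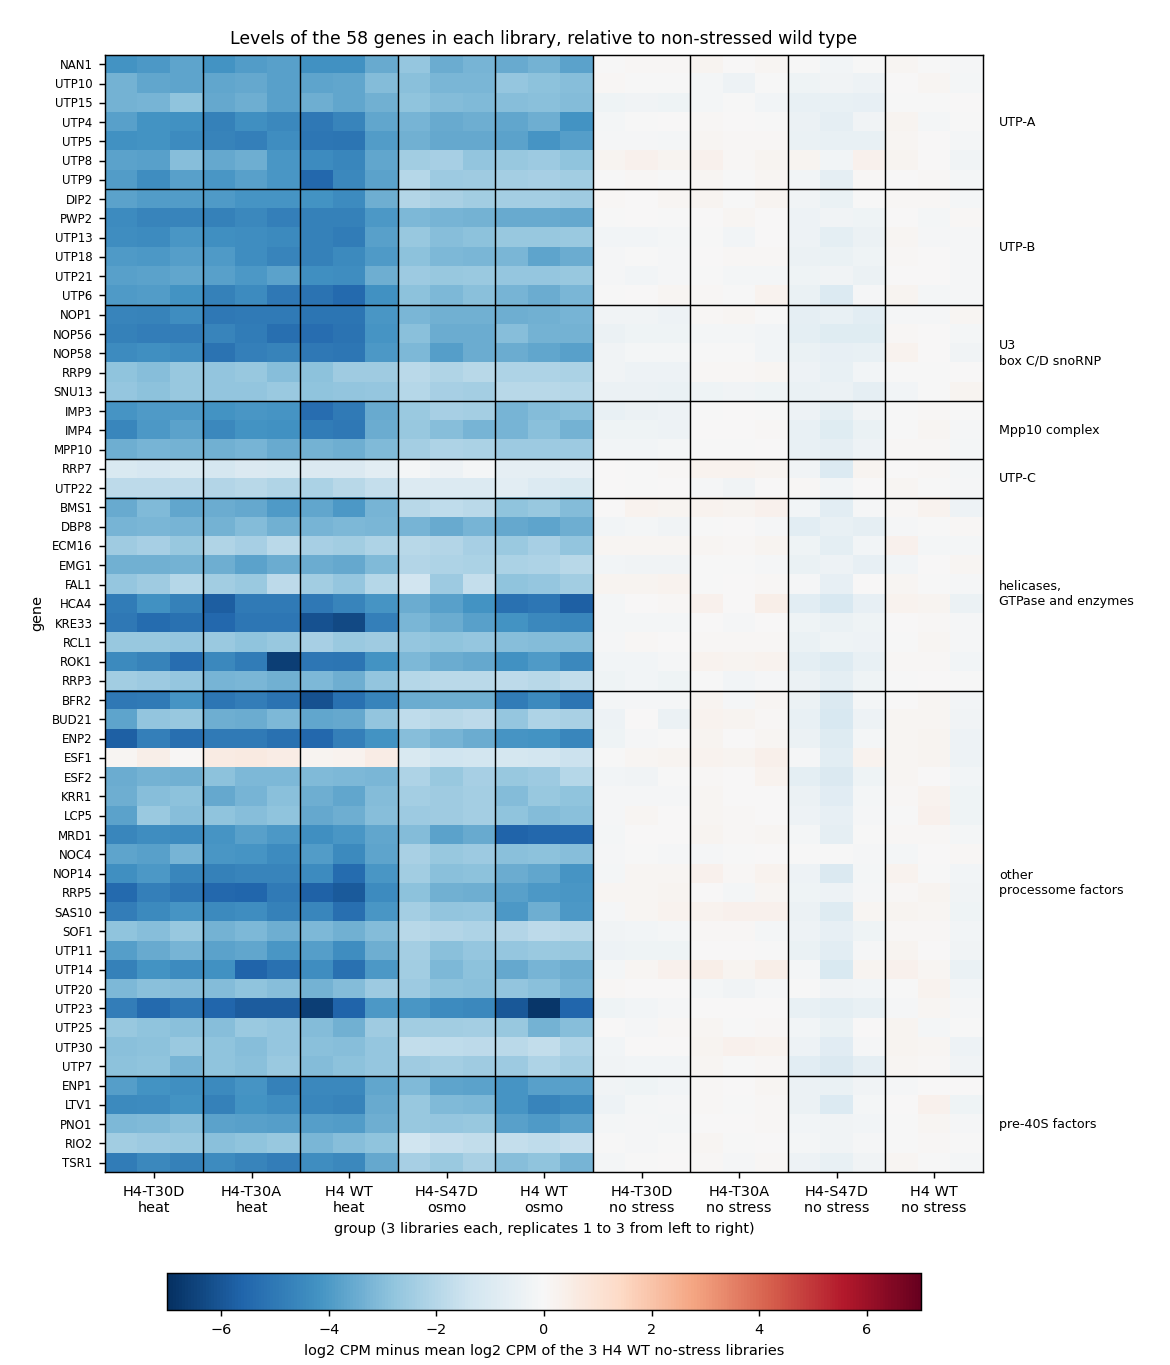
Levels of the 58 genes (rows, by role) in the 27 libraries (columns, 3 per group) as log2 CPM minus the mean log2 CPM of the 3 non-stressed H4 WT libraries, with no prior count. All stressed groups are blue throughout except for ESF1 under heat, with UTP22 and RRP7 of UTP-C the palest, and replicate 3 of heat-stressed H4 WT is paler than replicates 1 and 2 for most genes.

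The 2 stresses were also compared directly in H4 WT, by a contrast that leaves out the non-stressed level. Of the 58 genes, 6 were higher under heat than under osmostress and 40 were lower (edgeR's quasi-likelihood test against 0, adjusted p under 0.05), beside 29% and 34% of all tested genes. The median difference was −0.78 on the log2 scale, against −0.04 over all tested genes. Without replicate 3 of heat-stressed H4 WT, 4 were higher and 45 lower, with a median of −1.06. Of all tested genes, 28.1% were then higher and 33.3% lower. All 7 UTP-A, 6 UTP-B, 5 U3 snoRNP and 3 Mpp10 complex genes were among the 40, whereas the 10 genes for helicases, GTPase and enzymes split into 3 higher, 4 lower and 3 not called. Of the 20 other processome factors, 3 were higher and 12 lower, and of the 5 pre-40S factors, 2 were lower.

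Higher under heat were ESF1, by 1.67 (SE 0.16, adjusted p = 2.84e-10, edgeR), and MRD1, by 1.57 (SE 0.24, adjusted p = 1.37e-06, edgeR). MRD1 had 4.53, 5.20 and 7.08 CPM in heat-stressed H4 WT, against 1.77, 1.97 and 1.93 CPM in osmostressed H4 WT, with no overlap. UTP23 was called as well, with 0.533, 1.04 and 3.12 CPM under heat, against 0.835, 0.461 and 1.07 CPM under osmostress and a difference of 0.99 (SE 0.39, adjusted p = 0.0279, edgeR). Here the groups overlapped and replicate 3 decided the call, since without it the difference was 0.02 (adjusted p = 0.971, edgeR). RCL1, DBP8 and HCA4 were the other 3, with differences of 0.57, 0.37 and 0.75. The call of HCA4 was lost as well without replicate 3, at 0.50 (adjusted p = 0.258, edgeR).

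Lower under heat were UTP9, UTP13 and NOP56 most of all. UTP9, of UTP-A, had 1.24, 2.48 and 4.13 CPM in heat-stressed H4 WT, against 10.8, 11.3 and 10.4 CPM in osmostressed H4 WT, a difference of −2.04 (SE 0.23, adjusted p = 1.06e-08, edgeR). UTP13, of UTP-B, had 3.73, 3.36 and 7.00 CPM under heat, against 15.5, 16.0 and 16.2 CPM under osmostress, a difference of −1.76 (SE 0.17, adjusted p = 2.04e-10, edgeR). NOP56, a core box C/D protein, had 10.1, 11.0 and 23.2 CPM under heat, against 51.2, 41.5 and 40.6 CPM under osmostress, a difference of −1.59 (SE 0.19, adjusted p = 1.43e-08, edgeR). No heat-stressed library reached the osmostressed levels in any of the 3.

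Other genes of ribosome assembly are given for comparison. Of 28 other 40S factors, 21 fell upon osmostress and 23 upon heat, with medians of −2.25 and −2.86. Those not called under either stress were the casein kinase 2 subunits CKA1, CKA2, CKB1 and CKB2 and the kinase HRR25, enzymes with many other substrates, whose fold changes ran between −0.63 and 0.14. FCF1, at −1.0, and TSR3, at −1.17, were called under heat alone. Of 56 assembly factors of the 60S subunit, 55 fell upon each stress, with medians of −3.39 and −4.39. Of 56 genes for 40S ribosomal proteins, 44 fell upon osmostress and all 56 upon heat, with medians of −1.39 and −2.38, although scaling by library totals left 27 called upon osmostress. When replicate 3 of heat-stressed H4 WT was left out, 23, 55 and 56 genes of these lists fell upon heat, with medians of −3.05, −4.77 and −2.36. No test of a difference between lists was made.

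Within the 58 genes, the osmostress response in H4 WT had a median of −3.49 in the 34 with both promoter motifs, −2.65 in the 17 with PAC alone, −2.97 in the 3 with RRPE alone and −2.02 in the 4 with neither. Under heat the medians were −4.22, −3.18, −3.47 and −3.02. Among other tested genes, those with both motifs fell upon osmostress in 68.7% of 166 cases and upon heat in 72.3%, against 7.56% and 10.1% of 4619 genes with neither. The heat values include replicate 3. These are descriptions of groups that share annotation and function, with no test.

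In H4-S47D cells the genes were lower than in H4 WT already without stress. Of the 58, 41 were lower and none was higher (edgeR's quasi-likelihood test against 0, adjusted p under 0.05), beside 25.3% of all tested genes that were lower and 26.6% that were higher. The median difference was −0.40 on the log2 scale and the range −0.84 to 0.10, beside a median of 0.00 over all tested genes. When counts were scaled by library totals alone, the median of all tested genes was 0.18 and that of the 58 genes −0.22, again 0.40 below it, and 12 genes were called lower. Of all 6209 tested genes, 670 were lower and 2323 higher with that scaling. The 58 genes took 0.552% ± 0.0758 of all counts in non-stressed H4-S47D and 0.655% ± 0.0779 in non-stressed H4 WT (SD, n = 3 each), ranges that overlapped (0.470% to 0.620%, against 0.569% to 0.720%).

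HCA4 differed most, with 50.3, 38.2 and 55.9 CPM in non-stressed H4-S47D, against 101, 95.0 and 62.0 CPM in non-stressed H4 WT. Replicate 3 of H4 WT was the lowest of its group but stayed above every H4-S47D library, and the difference was −0.84 (SE 0.15, adjusted p = 4.34e-05, edgeR). NOP56 had 249, 225 and 224 CPM in H4-S47D, against 435, 417 and 362 CPM in H4 WT, a difference of −0.80 (SE 0.15, adjusted p = 4.8e-05, edgeR). UTP7, a WD-repeat protein of the processome, had 43.9, 36.4 and 48.3 CPM in H4-S47D, against 82.5, 77.4 and 63.1 CPM in H4 WT, a difference of −0.80 (SE 0.11, adjusted p = 4.1e-07, edgeR). In neither did the strains overlap. By role, all 5 U3 snoRNP genes and all 3 of the Mpp10 complex were lower, 8 of the 10 helicases, GTPase and enzymes, 5 of 6 in UTP-B, 4 of 7 in UTP-A, 12 of 20 other processome factors, 4 of 5 pre-40S factors and neither of the UTP-C genes.

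The libraries of this group were uneven. The median level of the 58 genes, relative to non-stressed H4 WT, was −0.59 in the lowest H4-S47D library, replicate 2, and −0.21 in the highest, against −0.13 to 0.07 in the H4 WT libraries. The number of genes called lower was 31 without replicate 2 of H4-S47D and 49 without replicate 3.

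Upon osmostress, the decrease was smaller in H4-S47D than in H4 WT cells. The interaction, the log2 fold change upon stress in H4-S47D minus that in H4 WT, was above 0 at an adjusted p under 0.05 in 43 of the 58 genes and below 0 in none (edgeR's quasi-likelihood test), beside 12.9% of all tested genes that were called above 0 and 20.7% below 0. Its median was 0.71 and its range −0.01 to 2.36, beside −0.06 over all tested genes, and 57 of the 58 estimates were above 0. In H4-S47D cells themselves, 54 genes fell by more than 2-fold upon osmostress and none rose, beside 9.95% and 8.34% of all tested genes, with a median of −2.35. The 54 left out UTP22, RRP7, BUD21 and ESF1, whose fold changes were −0.93, 0.06, −1.23 and −1.11.

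MRD1 had the largest interaction. It had 10.8, 6.45 and 7.66 CPM in osmostressed H4-S47D, against 1.77, 1.97 and 1.93 CPM in osmostressed H4 WT, and 78.1, 57.5 and 85.2 CPM in non-stressed H4-S47D, against 91.1, 92.5 and 79.4 CPM in non-stressed H4 WT. Under osmostress the strains were far apart, and without stress they overlapped. The interaction was 2.36 (SE 0.24, adjusted p = 7.97e-09, edgeR). HCA4 had 7.57, 6.03 and 4.54 CPM in osmostressed H4-S47D, against 2.21, 2.57 and 1.57 CPM in osmostressed H4 WT, so that it was the higher of the strains under stress and the lower without it. Its interaction was 2.31 (SE 0.32, adjusted p = 1.75e-06, edgeR).

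UTP23 had 3.01, 2.39 and 2.19 CPM in osmostressed H4-S47D, against 0.835, 0.461 and 1.07 CPM in osmostressed H4 WT, and 35.0, 31.1 and 35.6 CPM in non-stressed H4-S47D, against 48.9, 56.7 and 47.2 CPM in non-stressed H4 WT. Neither pair overlapped, and the order of the strains turned round with stress. The interaction was 2.24 (SE 0.36, adjusted p = 1.38e-05, edgeR). UTP23, MRD1 and KRE33 had the largest decreases upon osmostress within H4-S47D, of −3.76 (SE 0.19), −3.18 (SE 0.14) and −3.14 (SE 0.14). KRE33 had 17.2, 14.4 and 11.2 CPM in osmostressed H4-S47D, against 127, 116 and 129.9 CPM in non-stressed H4-S47D.

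**Figure D3:**
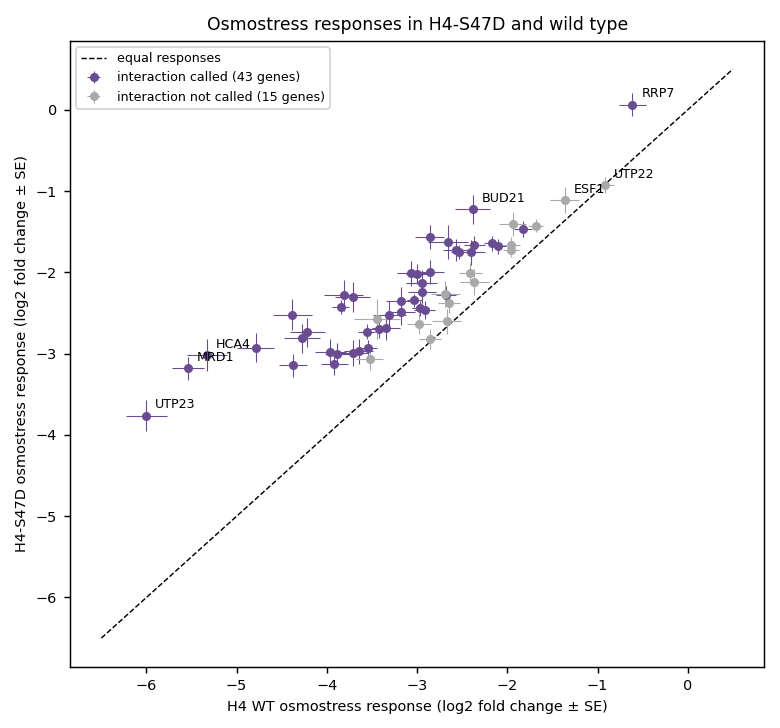
Log2 fold change upon osmostress (± SE) in H4-S47D (y axis) and in H4 WT (x axis) for each of the 58 genes, with the dashed line at equal responses. The 43 genes with a called interaction (purple) lie above the line, UTP23, MRD1 and HCA4 farthest, and UTP22 lies on it.

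An interaction joins the level before stress and the level under it. Under osmostress itself, 27 of the 58 genes were higher and 1 was lower in H4-S47D than in H4 WT, beside 15.8% and 24% of all tested genes, with a median difference of 0.31 and, over all tested genes, −0.04. Of the 43 genes with a called interaction, 18 were called both lower without stress and higher under osmostress, 17 only lower without stress and 8 only higher under osmostress. This split holds for TMM scaling and was not made with library totals, which called fewer genes lower without stress. With library totals the median difference under osmostress was 0.56, beside 0.21 over all tested genes. The largest differences under osmostress were those of MRD1, UTP23 and HCA4, of 2.11 (SE 0.21, adjusted p = 7.35e-09, edgeR), 1.65 (SE 0.33, adjusted p = 0.000241, edgeR) and 1.47 (SE 0.28, adjusted p = 0.000158, edgeR). The gene that was lower was SNU13, with 125, 99.8 and 95.5 CPM in osmostressed H4-S47D, against 129, 130.5 and 126 CPM in osmostressed H4 WT. Its groups did not overlap and the difference was −0.27 (SE 0.09, adjusted p = 0.0161, edgeR), a call that was lost without replicate 2 or without replicate 3 of osmostressed H4-S47D. The 58 genes took 0.149% ± 0.0109 of all counts in osmostressed H4-S47D, against 0.110% ± 0.00789 in osmostressed H4 WT (SD, n = 3 each), without overlap.

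By role, the interaction was called above 0 for all 10 helicases, GTPase and enzymes (0.36 to 2.31) and all 3 genes of the Mpp10 complex (0.79 to 1.05). It was called for 14 of the 20 other processome factors, 4 of 5 pre-40S factors, 4 of 5 U3 snoRNP genes and 4 of 6 UTP-B genes. In UTP-A, whose proteins reach the pre-rRNA first, it was called for 3 of 7, and UTP8, UTP9 and UTP10 had estimates of 0.07, 0.24 and 0.03. Of the UTP-C genes in the list, RRP7 was called, at 0.68 (SE 0.21, adjusted p = 0.0116, edgeR), and UTP22 was not, at −0.01 (SE 0.14, adjusted p = 0.963, edgeR). RRP7 had 29.4, 25.6 and 29.2 CPM in osmostressed H4-S47D, against 27.1, 16.8 and 36.3 CPM in non-stressed H4-S47D, which overlapped.

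Among the other lists, the same interaction was called above 0 in 19 of 28 other 40S factors, 44 of 56 60S assembly factors and 13 of 56 genes for 40S ribosomal proteins, with medians of 0.61, 0.74 and 0.21. The last count was 34 with library totals. Under osmostress, 38 of the 56 ribosomal protein genes were lower in H4-S47D than in H4 WT and 2 were higher, which became 14 and 7 with library totals.

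**Figure D4:**
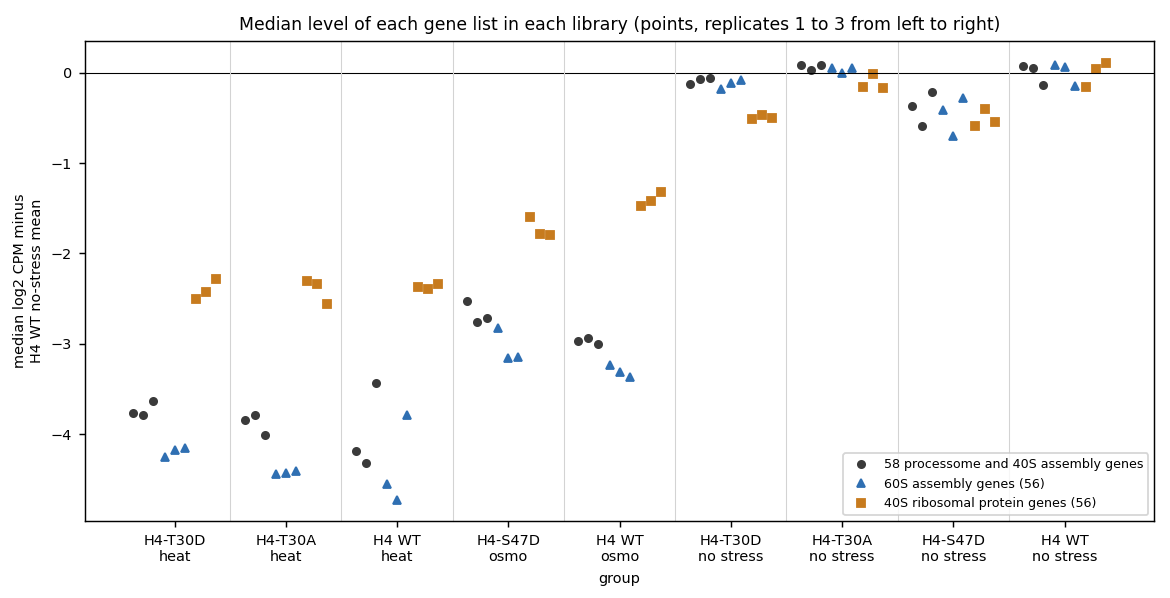
Median log2 CPM of 3 gene lists in each library, relative to the mean of the non-stressed H4 WT libraries (y axis), by group (x axis). The 58 genes (black circles) lie at −2.76 to −2.52 in osmostressed H4-S47D and at −3.01 to −2.93 in osmostressed H4 WT, and replicate 3 of heat-stressed H4 WT lies at −3.44, above the other 2 of its group.

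In H4-T30A cells no difference from H4 WT in these genes passed edgeR's test with all libraries in the fit. Without stress, none of the 58 was called in either direction, by edgeR's quasi-likelihood test at an adjusted p under 0.05. At an unadjusted p under 0.05 there was 1, and DESeq2 called 1. Of all tested genes, 0.612% were called higher and 0.773% lower. The differences ran between −0.28 and 0.30 on the log2 scale with a median of 0.05. Upon heat, 57 of the 58 genes fell by more than 2-fold in H4-T30A and none rose, beside 15% and 14.9% of all tested genes, with a median of −3.98, and ESF1, at 0.29, was the gene not called. UTP23, HCA4 and the DEAD-box helicase ROK1 fell most, with fold changes of −5.72 (SE 0.23, adjusted p = 2.24e-18, edgeR), −5.43 (SE 0.23, adjusted p = 7.52e-18, edgeR) and −5.30 (SE 0.21, adjusted p = 3.77e-18, edgeR). ROK1 had 2.34, 1.81 and 0.552 CPM in heat-stressed H4-T30A, against 63.7, 60.2 and 62.0 CPM in non-stressed H4-T30A, and replicate 3 was the lowest.

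The heat response of H4-T30A minus that of H4 WT was called in none of the 58 genes by edgeR, with 4 at an unadjusted p under 0.05 and none by DESeq2, beside 0.177% of all tested genes called above 0 and 0.306% below 0. The estimates ran between −0.85 and 0.40 with a median of −0.12. Without replicate 3 of heat-stressed H4 WT the median was 0.13, and UTP21, of UTP-B, was called above 0, at 0.60 (adjusted p = 0.0208, edgeR). Of all tested genes, 0.208% were then called above 0 and 0.415% below 0. Under heat itself, no gene differed between H4-T30A and H4 WT by edgeR (2 at an unadjusted p under 0.05, none by DESeq2), beside 2.09% of all tested genes called higher and 4.54% lower. Without that replicate, 3 genes were called higher, beside 2.44% of all tested genes called higher and 5.37% lower.

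H4-T30D cells had slightly lower levels of a few of the genes without stress. Of the 58, 6 were lower and none was higher (edgeR's quasi-likelihood test, adjusted p under 0.05), a smaller share than the 15.3% of all tested genes that were lower, while 16.3% of all tested genes were higher. The median difference was −0.08 on the log2 scale, and 0.12 when counts were scaled by library totals, which also moved the median of all tested genes to 0.21. The largest were those of SNU13, IMP3 and RRP9. SNU13 had 373, 376 and 365 CPM in non-stressed H4-T30D, against 444, 495 and 564 CPM in non-stressed H4 WT, a difference of −0.43 (SE 0.09, adjusted p = 0.000303, edgeR). IMP3, of the Mpp10 complex, had 23.0, 24.5 and 25.3 CPM in H4-T30D, against 31.9, 34.2 and 31.8 CPM in H4 WT, a difference of −0.43 (SE 0.13, adjusted p = 0.014, edgeR). RRP9, the U3-specific protein of the snoRNP, had 81.9, 76.1 and 76.3 CPM in H4-T30D, against 95.0, 95.6 and 99.4 CPM in H4 WT, a difference of −0.31 (SE 0.09, adjusted p = 0.00779, edgeR). No library of one strain reached the other in these 3 genes, and 20.9% of all tested genes were likewise lower without overlap. UTP15, RRP3 and EMG1 were also lower, with differences of −0.29, −0.26 and −0.24.

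Upon heat, 56 of the 58 genes fell by more than 2-fold in H4-T30D and none rose, beside 14% and 12.8% of all tested genes, with a median of −3.59. RRP5, ENP2 and KRE33 fell most, with fold changes of −5.23 (SE 0.19, adjusted p = 5.29e-19, edgeR), −5.10 (SE 0.23, adjusted p = 1.06e-16, edgeR) and −5.05 (SE 0.17, adjusted p = 5.78e-20, edgeR). ENP2, which sits with Bfr2 in the processome, had 1.42, 2.69 and 1.95 CPM in heat-stressed H4-T30D, against 61.4, 69.9 and 74.5 CPM in non-stressed H4-T30D. RRP5 had 3.45, 5.38 and 4.54 CPM under heat, against 165, 164 and 172 CPM without stress, and KRE33 had 5.01, 3.85 and 4.30 CPM under heat, against 144, 147 and 147 CPM without stress. In all 3 the stressed and non-stressed libraries were far apart.

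The heat response of H4-T30D minus that of H4 WT was called above 0 in 6 of the 58 genes, PNO1, RRP3, UTP15, SOF1, RIO2 and SNU13, and below 0 in none (edgeR's quasi-likelihood test), beside 4.4% of all tested genes called above 0 and 9.62% below 0. The median was 0.19, beside −0.06 over all tested genes. Without replicate 3 of heat-stressed H4 WT, 21 genes were called above 0, all 6 among them, beside 5.42% of all tested genes, and the median was 0.51. The largest of the 21 were IMP3, KRE33 and IMP4, at 1.55, 1.16 and 1.14. The number of genes called thus depended on this library.

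PNO1 had 20.0, 20.5 and 23.4 CPM in heat-stressed H4-T30D, 12.9, 12.4 and 12.3 CPM in heat-stressed H4-T30A, and 12.3, 11.7 and 16.4 CPM in heat-stressed H4 WT. Each H4-T30D library was above each library of the other strains under heat. Without stress, PNO1 had 157, 163 and 158 CPM in H4-T30D, against 172, 193 and 163 CPM in H4 WT, and the interaction was 0.80 (SE 0.13, adjusted p = 7.01e-05, edgeR). RRP3, a DEAD-box helicase, had 16.5, 15.1 and 13.6 CPM in heat-stressed H4-T30D, 9.48, 9.52 and 8.55 CPM in heat-stressed H4-T30A, and 10.2, 8.32 and 12.9 CPM in heat-stressed H4 WT. Here too the H4-T30D libraries were the highest, with the order reversed without stress, where RRP3 had 73.2, 77.5 and 72.3 CPM in H4-T30D and 88.1, 91.7 and 87.0 CPM in H4 WT. The interaction was 0.79 (SE 0.16, adjusted p = 0.000868, edgeR). UTP15, of UTP-A, had 13.5, 13.9 and 19.0 CPM in heat-stressed H4-T30D, against 12.8, 11.0 and 12.9 CPM in heat-stressed H4 WT, and 108, 115 and 107 CPM in non-stressed H4-T30D, against 134, 131 and 139 CPM in non-stressed H4 WT. The heat-stressed libraries of the strains did not overlap, nor did the non-stressed ones, and the interaction was 0.63 (SE 0.14, adjusted p = 0.00287, edgeR). With replicate 3 of heat-stressed H4 WT left out, the interactions were 0.96 (adjusted p = 1.68e-06, edgeR) for PNO1, 0.97 (adjusted p = 7.73e-05, edgeR) for RRP3 and 0.67 (adjusted p = 0.00309, edgeR) for UTP15.

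**Figure D5:**
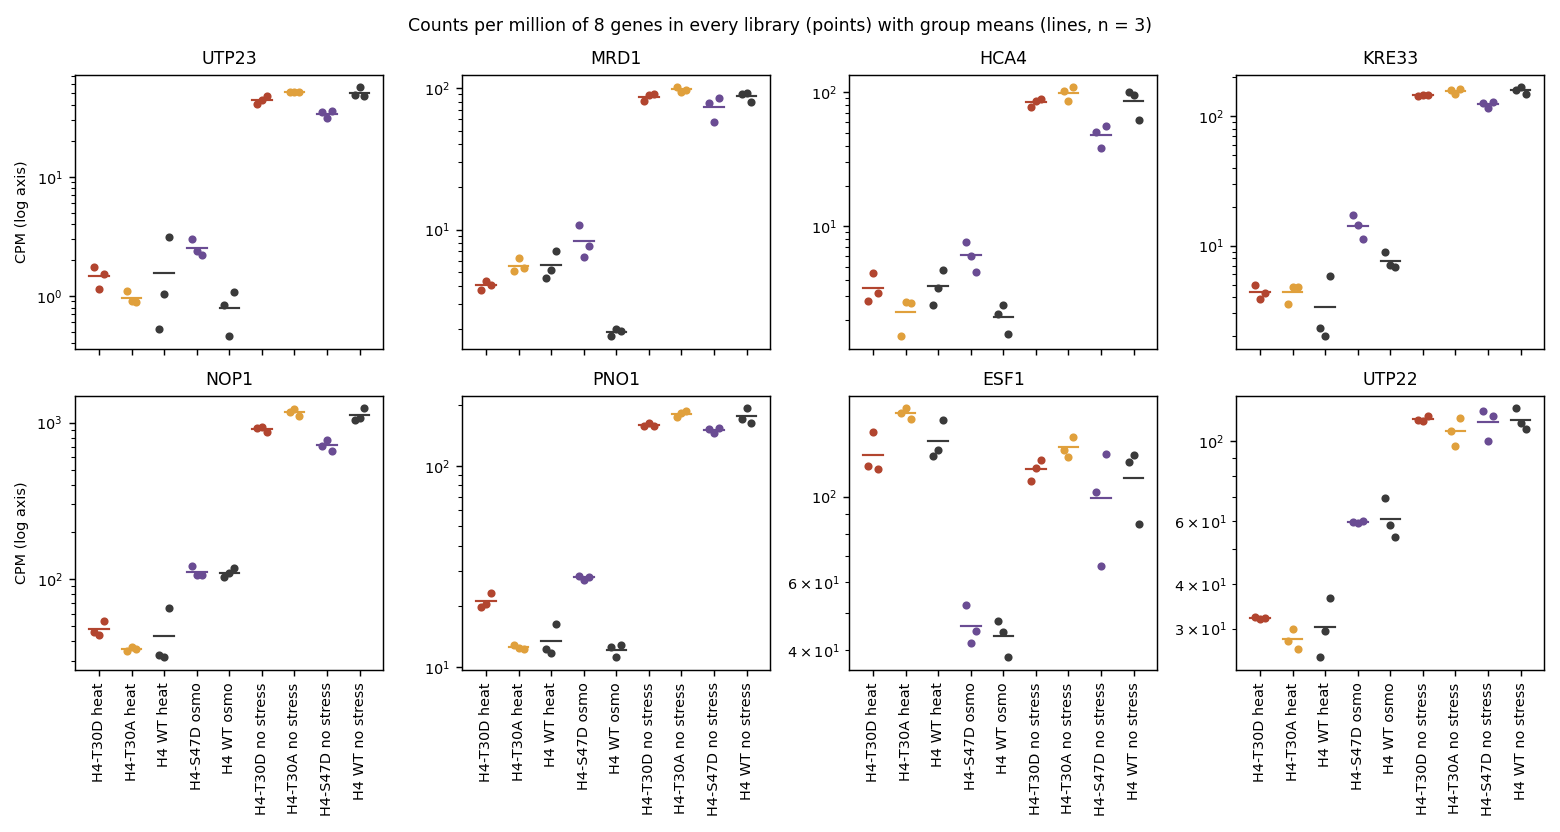
Levels in CPM (log axis) of 8 of the genes in every library (points) with the mean of each group (lines, n = 3). MRD1, UTP23 and HCA4 are higher in osmostressed H4-S47D than in osmostressed H4 WT, PNO1 is highest under heat in H4-T30D, and the mean of ESF1 under heat is above its non-stressed mean in all 3 strains that were heated.

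The heat responses of the mutants were also compared with each other, by a contrast without an H4 WT term in the fit of all 27 libraries. The heat response of H4-T30D minus that of H4-T30A was above 0 in 7 of the 58 genes and below 0 in none (edgeR's quasi-likelihood test), beside 3.78% of all tested genes called above 0 and 5.23% below 0, with a median of 0.28 and, over all tested genes, −0.03. A fit to the libraries of H4-T30D and H4-T30A alone called 20 genes above 0 and 1 below 0. The share of all tested genes called in that fit was not computed, so these counts have no background beside them. The 7 were PNO1, RRP3, NOP1, SOF1, NOC4, UTP15 and RIO2. PNO1 and RRP3 differed most, by 0.95 (SE 0.12, adjusted p = 5.53e-06, edgeR) and 0.90 (SE 0.15, adjusted p = 0.000297, edgeR). NOP1 had 46.0, 43.9 and 53.8 CPM in heat-stressed H4-T30D, against 34.5, 36.6 and 35.9 CPM in heat-stressed H4-T30A, and 921, 941 and 866 CPM in non-stressed H4-T30D, against 1164, 1228 and 1106 CPM in non-stressed H4-T30A. The order of the mutants turned round with heat, and the difference was 0.78 (SE 0.21, adjusted p = 0.0175, edgeR).

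Under heat itself, 4 genes were higher and 1 was lower in H4-T30D than in H4 WT, beside 5.01% and 8.7% of all tested genes. PNO1, RRP3 and RIO2 were highest, by 0.66 (SE 0.10, adjusted p = 3.2e-05, edgeR), 0.53 (SE 0.13, adjusted p = 0.00425, edgeR) and 0.50 (SE 0.10, adjusted p = 0.00133, edgeR). RIO2, an atypical kinase of the pre-40S particle, had 17.0, 16.0 and 15.4 CPM in heat-stressed H4-T30D, against 9.95, 11.6 and 12.8 CPM in heat-stressed H4 WT, without overlap. TSR1, a GTPase-like protein of the pre-40S particle, was lower at −0.61 (SE 0.20, adjusted p = 0.0425, edgeR), with 4.19, 5.54 and 4.71 CPM in H4-T30D and 6.13, 5.52 and 10.4 CPM in H4 WT. These values overlapped, and without replicate 3 of H4 WT the difference was −0.28 (adjusted p = 0.387, edgeR). Without that library 16 genes were higher and none was lower in H4-T30D, beside 5.42% and 8.88% of all tested genes.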

How the data were processed

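The authors mapped 50 bp single-end reads of poly(A)-selected RNA to sacCer3 with TopHat2 2.1.0, counted uniquely mapping reads per gene of the Ensembl R64-1-1 annotation with featureCounts 1.5.1, and tested them with DESeq2 1.14.1. They deposited raw counts per gene, which were used here. The library kit keeps strand, but whether counting used it is not given in the sources used here.

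Counts were analysed with edgeR 4.0.16 (R 4.3.3, limma 3.58.1): filterByExpr with a minimum count of 10, TMM scaling (factors 0.819 to 1.32) and a quasi-likelihood fit with 1 mean for each of 9 groups (common dispersion 0.00653). Of 6746 genes, 537 were not tested. For stress responses the null was an absolute log2 change of at most 1 (glmTreat), as in the methods of the study, and for other contrasts 0, with Benjamini-Hochberg adjustment over all 6209 genes. There were 16 contrasts. All expression values given here come from the deposited counts. Simulated counts were used only to check the recovery of known changes. This check covered the osmostress response of H4 WT, H4-S47D without stress and the H4-S47D interaction only. CPM values use TMM, and library medians a prior count of 2. Precision is limited by the 3 replicates of a group and, for members with low counts under stress (lowest 6), also by depth.

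The 58 genes and all lists were chosen with earlier results of these data known. Values per library are given for the 3 members that changed most among those called, per comparison and direction (mean count of at least 10), and for the member of each role with the highest mean CPM, and any other gene named was chosen after its values were seen. Most named genes were picked for large changes, so a lack of overlap between groups is no separate support for them. Of all tested genes, 34.6% were lower without overlap in H4 WT upon osmostress and 34.7% upon heat. In H4-S47D without stress, 22.2% were lower than in H4 WT without overlap. Of 57 listed 60S factors, 56 were matched by symbol. Promoters come from the RefSeq R64 sequence, the assembly of the authors' reference. Alternatives were DESeq2 1.42.0, its size factors, library totals, no filter, a replicate block, fits to the libraries compared, other thresholds and each replicate left out. Plots used Python 3.11 and matplotlib 3.10.9.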

Additional observations from a re-analysis of the deposited data

Results flagged for a closer look

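Effects of the same stress that differed between strains by a test of the difference itself are collected here. The osmostress response differed between H4-S47D and H4 WT in 43 of the 58 genes, all above 0. Of all tested genes, 12.9% were called above 0 and 20.7% below 0. The largest differences were in MRD1 (2.36 on the log2 scale), HCA4 (2.31) and UTP23 (2.24). The heat response differed between H4-T30D and H4 WT in 6 genes, all above 0, led by PNO1 (0.80), RRP3 (0.79) and UTP15 (0.63). Of all tested genes, 4.4% were called above 0 and 9.62% below 0. Without replicate 3 of heat-stressed H4 WT, 21 genes were above 0, beside 5.42% of all tested genes above 0 and 9.09% below 0. Between H4-T30D and H4-T30A, the heat response differed in 7 genes, all above 0, led by PNO1 (0.95), RRP3 (0.90) and NOP1 (0.78). Of all tested genes, 3.78% were called above 0 and 5.23% below 0. All groups hold 3 libraries, too few for a test of single outlying samples.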

How the results depend on the processing

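The counts of genes called lower in the responses of H4 WT to osmostress and heat, of H4-S47D to osmostress and of H4-T30A and H4-T30D to heat, and the 43 interactions of H4-S47D, stayed within 1.5 times under every alternative run (lowest and highest: 55 to 56, 56 to 56, 49 to 56, 56 to 57, 56 to 57 and 40 to 49, and 37 to 49 interactions with each library left out in turn). Library totals in place of TMM gave 2 genes higher under heat than under osmostress (6 with TMM), 12 lower in non-stressed H4-S47D (41), 1 lower in non-stressed H4-T30D (6), 3 above 0 for H4-T30D against H4-T30A (7), 0 lower in osmostressed H4-S47D (1) and 0 lower in heat-stressed H4-T30D (1). Of all 6209 tested genes, 861 were then higher under heat than under osmostress, and 670 and 256 lower in non-stressed H4-S47D and H4-T30D. With library totals 98 were above 0 for H4-T30D against H4-T30A, and 325 and 210 lower in osmostressed H4-S47D and heat-stressed H4-T30D. That scaling moved the median of all genes by more than 0.1 on the log2 scale in 11 of the 16 comparisons. Among all tested genes, the share of calls that were higher became 65.7% in place of 50.5% for osmostressed H4 WT, 20.6% in place of 46.0% for heat against osmostress, 77.6% in place of 51.3%, 81.1% in place of 44.2% and 89.1% in place of 51.5% for non-stressed H4-S47D, H4-T30A and H4-T30D, 67.9% in place of 45.6% for osmostress in H4-S47D, 87.3% in place of 39.7%, 73.0% in place of 31.6% and 64.0% in place of 36.5% for H4-S47D, H4-T30A and H4-T30D against H4 WT under stress, and 13.5% in place of 31.4% and 13.7% in place of 42.0% for the H4-T30D interactions with H4 WT and H4-T30A. DESeq2's size factors gave 15 lower genes in non-stressed H4-T30D and 0 lower in heat-stressed H4-T30D. Of all 6209 tested genes, 1293 and 378 were then lower. With them, the share of calls that were higher was 49.4% for the H4-S47D interaction, 53.8% and 55.7% for the H4-T30D interactions with H4 WT and H4-T30A, 32.9% and 39.0% for non-stressed H4-T30A and H4-T30D, and 47.1% for heat-stressed H4-T30D. DESeq2 itself called 1 lower gene in non-stressed H4-T30A, 13 in non-stressed H4-T30D and 10 above 0 for the H4-T30D interaction. Fits to the libraries compared gave 20 above 0 and 1 below 0 for H4-T30D against H4-T30A, 1 higher in heat-stressed H4-T30A and 0 lower in heat-stressed H4-T30D. Testing against 1 on the log2 scale left 2 higher and 6 lower genes for heat against osmostress, 0 lower in non-stressed H4-S47D, 0 lower in non-stressed H4-T30D, 1 higher and 0 lower in osmostressed H4-S47D, and 0 higher and 0 lower in heat-stressed H4-T30D. When single libraries were left out, the counts ran between 4 and 6 higher and 34 and 45 lower (heat against osmostress), 31 and 49 (H4-S47D without stress), 0 and 1 (H4-T30A without stress), 3 and 10 (H4-T30D without stress), 0 and 1 (H4-T30A interaction), 5 and 21 above 0 and 0 and 1 below 0 (H4-T30D interaction), 4 and 7 (H4-T30D against H4-T30A), 18 and 25 higher and 0 and 1 lower (H4-S47D under osmostress), 0 and 3 (H4-T30A under heat), and 2 and 16 higher and 0 and 1 lower (H4-T30D under heat). The cause of these differences was not tested. No share of all tested genes is given for DESeq2 itself, fits to the libraries compared, tests against 1 or the replicate block. For libraries left out, it is given above only without replicate 3 of heat-stressed H4 WT. No gene named by the rule changed direction in any alternative run, but 6 medians of the 58 genes, in 4 comparisons and all near 0, did. With library totals they were 0.12 in place of −0.08 (H4-T30D without stress) and 0.06 in place of −0.06 (H4-T30A against H4 WT under heat). Without replicate 3 of heat-stressed H4 WT they were 0.13 in place of −0.12 (H4-T30A interaction) and 0.20 in place of −0.06 (H4-T30A under heat), and without replicate 1 or 2 −0.02 and −0.07 in place of 0.09 (H4-T30D under heat). Replicate numbers did not pair the samples: correlations of same-numbered deviations were over 0.1 for at most 2 of 3 numbers, and in 1 comparison only. With the replicate number as a block, 56 genes were called lower in H4 WT upon each stress, 5 higher and 40 lower under heat against osmostress, 41 and 6 lower in non-stressed H4-S47D and H4-T30D, 44, 6 and 7 above 0 for the interactions of H4-S47D, of H4-T30D and of H4-T30D against H4-T30A, 25 higher in osmostressed H4-S47D and 3 higher in heat-stressed H4-T30D, and the block changed no other count by more than 1.5 times.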

Other observations

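Genes for 40S ribosomal proteins were called often in H4-T30D. Without stress, 54 of 56 were lower in H4-T30D than in H4 WT (median −0.51 on the log2 scale, edgeR's quasi-likelihood test at an adjusted p under 0.05), beside 6 of the 58 assembly genes and 15.3% of all tested genes. With library totals the counts were 45 and 1, and 256 of all 6209 tested genes. The heat response of H4-T30D minus that of H4 WT was above 0 in 37 of the 56 (median 0.46), beside 6 of the 58 and 4.4% of all tested genes. Without replicate 3 of heat-stressed H4 WT it was above 0 in 37 and 21, and in 5.42% of all tested genes. Under heat itself, 1 ribosomal protein gene was higher and 1 was lower in H4-T30D, beside 4 and 1 of the 58. Of all tested genes, 5.01% were higher and 8.7% lower. The difference between the lists was not tested.

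Among the 28 other 40S factors, NSR1, the yeast nucleolin, and RRP12, which takes part in export of the subunits, had the largest decreases upon osmostress in H4 WT, of −5.13 and −5.12 on the log2 scale, and fell by 4.87 and 4.34 upon heat. PXR1, a G-patch protein, fell by 4.24 upon osmostress and had the largest interaction of the list in H4-S47D, 1.92 (SE 0.30, adjusted p = 9.08e-06, edgeR), beside 1.21 for NSR1 and 1.40 for RRP12. These 3 genes were chosen after their values were seen.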
